A study of Mus musculus with 33 samples.

Results

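Mouse embryonic stem cells exposed to all-trans retinoic acid together with CHIR were compared between day 4 and day 7 of exposure, with both inducers present throughout the step. The 6 libraries used, 3 from day 4 (RA/CHIR-4d) and 3 from day 7 (RA/CHIR-7d), were chosen by their labels out of 33 libraries in the series. All cells were of strain 129S2/SvPas, retinoic acid was given at 10 µM and CHIR at 5 µM, and the labels call both groups XEN-like cells derived from stem cells. The study ran a second arm on retinoic acid alone (RA, 10 µM) with libraries at days 4 and 7 (3 each), kept the inducers on for 10 days, and added untreated stem cells (mES), an extraembryonic endoderm stem cell line (XEN) and a smooth muscle cell line (SMC), 3 libraries each. The stem cells had been grown with LIF on inactivated embryonic fibroblasts before they were plated on gelatin for induction. The labels do not say whether replicates came from separate cultures, so the p-values below may measure technical spread alone.

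Retinoic acid binds nuclear retinoic acid receptors and turns on genes that carry paired receptor motifs, among them Cyp26a1, whose product degrades retinoic acid. CHIR blocks the kinase GSK3, and this stabilises beta-catenin, which acts with TCF/LEF factors on Wnt target genes such as Axin2. Extraembryonic endoderm arises beside the pluripotent epiblast in the mouse blastocyst, is marked by Gata4, Gata6, Sox17 and Pdgfra, and gives rise to parietal endoderm, which lays down basement membrane, and visceral endoderm, which absorbs and transports nutrients. In mouse stem cell cultures a small fraction of cells at any time switches on a programme of the 2-cell embryo that includes the Zscan4 cluster.

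The comparison rested on 13080 genes with at least 1 FPKM (fragments per kilobase of transcript, scaled to library size) in at least 3 of the 6 libraries. A gene was called when limma's BH-adjusted p was under 0.05 and its log2(FPKM + 1) value changed by 1 or more, and "rose" and "fell" are used for such genes only. By this rule 177 genes rose (1.35% of those tested) and 257 fell (1.96%), together 3.32%. The adjusted p alone held for 2160 genes in the upward direction (16.5%) and 2347 in the downward direction (17.9%). The step was thus made of many small differences and few large ones, as the plot of change against level shows. Of the genes that fell, 211 were protein coding and 25 were pseudogenes, against 161 and 5 of those that rose. Library values did not overlap between the days for 3081 higher genes (23.6%) and 3530 lower genes (27%). The filter itself shapes the calls near its edge, since 319 genes passed it through the libraries of 1 day alone and 121 of these were called. Among list members named below these include Ttr, Gdf3, Tdgf1, Nodal, Fgf8, Grhl2, Igfbp1, Mfap2, Dkk2, Aqp3 and Lrrn4.

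**Figure D1:**
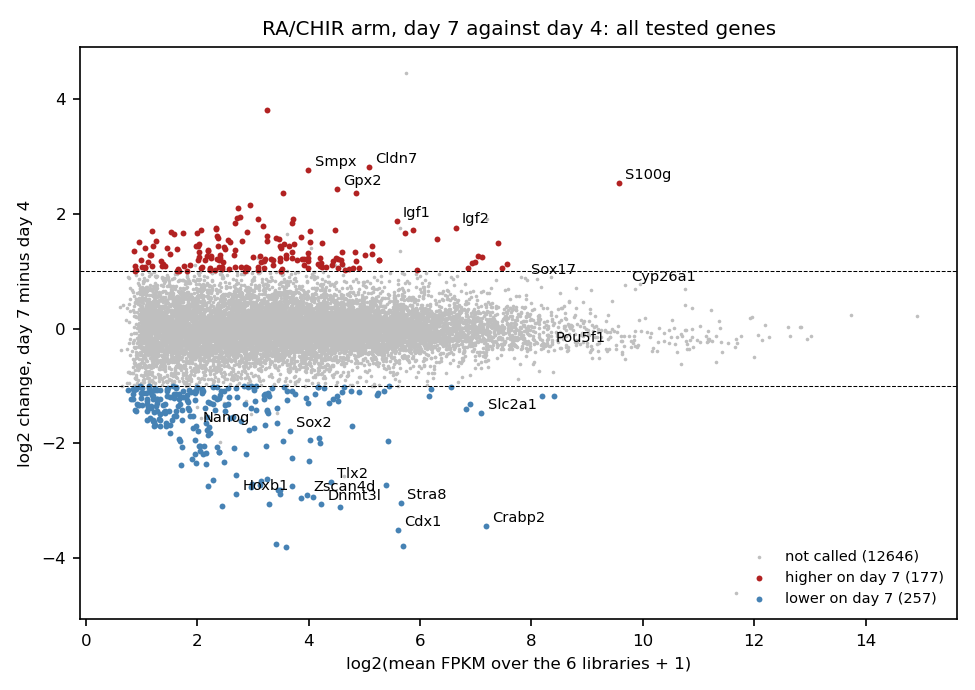
Change from day 4 to day 7 of RA/CHIR (vertical axis, log2(FPKM + 1) difference) against level (horizontal axis, log2 of the mean FPKM over the 6 libraries plus 1), with 1 point per tested gene and dashed lines at a change of 1 in size. The 177 red genes rose and the 257 blue genes fell; of the labelled genes, S100g is the most abundant that rose and Crabp2 the most abundant that fell.

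The 6 libraries were alike in composition, apart from the mitochondrial share of day 4 replicate 2, and less alike in estimated depth. FPKM sums ran from 647424 to 763414, the highest in day 4 replicate 2, where the short mitochondrial gene mt-Ts1 alone held 89757 FPKM. Mitochondrial genes made up 19.8% of the sum in that library and 8.53% to 11.1% in the others. Between 12826 and 13057 genes reached 1 FPKM per library. The correlation of log2 values was 0.985 to 0.987 within a day and 0.962 to 0.965 between days. Deposited FPKM values hold no depth, but the spacing of the lowest values gave a rough relative depth. It was 1, 0.959 and 0.847 on day 4 and 0.801, 0.835 and 0.859 on day 7, so day 4 tended to be deeper. The estimate rests on the commonest ratio to day 4 replicate 1, which 12.5% to 22.7% of the low genes held. These are bulk libraries, in which fewer cells of a type and less RNA per cell cannot be told apart.

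Genes of the 2-cell programme fell. Of 15 tested genes of this list 14 fell and none rose, and their median log2 change was -2.14, against -0.01 over all tested genes. Of the 15, 8 were below 1 FPKM in every day 7 library and passed the filter on low values through day 4 alone, so they had to be lower on day 7, and the count and median are descriptions. Of the other 7, which reached 1 FPKM on both days, 6 fell, namely Zscan4a, Zscan4c, Zscan4d, Zscan4e, Zscan4f and Usp17le, and the translation factor gene Eif1a had 62.8 and 54.4 FPKM. Zscan4d, a zinc finger protein of the 2-cell embryo that acts at telomeres, stood at 24.6, 27.8 and 27.4 FPKM on day 4 and at 2.88, 2.73 and 2.50 FPKM on day 7. Every day 7 library lay far below every day 4 library (ratio of means 0.102, log2 change -2.90 ± 0.11 SE, limma adjusted p = 8.71e-17). Zscan4c had 22.5, 21.0 and 21.4 FPKM and then 2.41, 2.33 and 2.42 FPKM (-2.74 ± 0.08 SE, adjusted p = 1.76e-18). Zscan4f had 18.2, 19.8 and 16.1 FPKM and then 1.17, 1.24 and 3.05 FPKM (-2.81 ± 0.17 SE, adjusted p = 9.77e-13). The days did not overlap in Zscan4c or Zscan4f either. Zscan4a, Zscan4b and Zscan4e fell by 2.70, 2.18 and 2.55 on the log2 scale, and the pseudogenes Zscan4-ps2 and Zscan4-ps3 by 2.66 and 2.62.

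The other members of the list moved the same way from lower levels. The 5 tested members of the Usp17l family of deubiquitinases fell, from Usp17le (7.57 ± 0.60 to 0.93 ± 0.20 FPKM, mean ± SD, n = 3) to Usp17la (log2 change -1.43). Tcstv3 fell from 3.55 ± 1.10 to 0.56 ± 0.21 FPKM, Tdpoz4 from 2.44 ± 0.20 to 0.14 ± 0.16 FPKM and Zfp352 from 1.53 ± 0.29 to 0.08 ± 0.04 FPKM. Eif1a, a translation initiation factor on the same list that most cells express, was the member that was not called, at 62.8 ± 2.8 and 54.4 ± 5.4 FPKM (log2 change -0.21, adjusted p = 0.0145). Copies within the Zscan4 and Usp17l clusters are nearly identical and strand was not stated, so reads may be split between them and the single members are less certain than the group. The unnamed sequences CT954323.3 and AC126554.8, both on chromosome 12, were also among the 15 largest falls. CT954323.3 read 57.5, 55.8 and 162 FPKM on day 4 and 0, 13.9 and 13.1 FPKM on day 7, and AC126554.8 read 5.70, 8.48 and 7.92 FPKM and then 0, 0.53 and 0.51 FPKM.

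The promoters of 3 Zscan4 copies are shown because these genes fell together and their reads are hard to separate. The sequences are RefSeq windows on GRCm38.p6, each running from 250 bases before the annotated start to 50 bases within the gene and printed on the gene's own strand. Zscan4c is at chr7:11005495-11005794 on the plus strand, Zscan4d at chr7:11166099-11166398 on the minus strand and Zscan4f at chr7:11397665-11397964 on the plus strand. Capitals mark the letters TCAAAG, the core of the TCF/LEF site, here read on the opposite strand as CTTTGA.
Zscan4c: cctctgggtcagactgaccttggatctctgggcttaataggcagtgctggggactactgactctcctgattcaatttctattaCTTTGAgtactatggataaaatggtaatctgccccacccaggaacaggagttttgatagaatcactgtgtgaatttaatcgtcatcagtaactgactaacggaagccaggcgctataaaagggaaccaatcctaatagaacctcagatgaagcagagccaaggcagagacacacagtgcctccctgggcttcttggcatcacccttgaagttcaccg
Zscan4d: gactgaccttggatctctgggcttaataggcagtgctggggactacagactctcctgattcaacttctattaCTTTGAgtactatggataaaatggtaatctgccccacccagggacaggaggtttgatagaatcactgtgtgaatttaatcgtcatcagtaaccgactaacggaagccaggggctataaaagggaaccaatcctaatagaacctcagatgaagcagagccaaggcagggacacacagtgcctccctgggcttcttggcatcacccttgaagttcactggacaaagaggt
Zscan4f: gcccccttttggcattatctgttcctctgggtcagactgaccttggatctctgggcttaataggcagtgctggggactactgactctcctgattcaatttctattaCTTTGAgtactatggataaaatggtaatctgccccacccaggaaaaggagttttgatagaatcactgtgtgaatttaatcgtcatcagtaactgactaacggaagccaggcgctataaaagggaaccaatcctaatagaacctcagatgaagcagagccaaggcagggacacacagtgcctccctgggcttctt
Over the aligned bases the windows were 99.3% identical between Zscan4c and Zscan4f, 97.2% between Zscan4c and Zscan4d and 97.4% between Zscan4d and Zscan4f. Each window held TCAAAG once, searched on both strands, and 16% of 32851 promoter windows of the same length held it at least once. Among other genes searched, the window of Zscan4b held it once, and that of Sp5 and a window of Rbp4, which rose, held it 2 times. The windows of Axin2, Cyp26a1, Hoxb1, Stra8, Crabp1, Rarb, S100g, Cldn7 and Dnmt3l did not hold it. These matches are a description of letters and say nothing of binding.

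The retinoid genes split between a set that fell steeply and a degrading enzyme that did not fall. Of 24 tested genes of retinoid handling and response 4 fell (Crabp2, Stra8, Hoxb1 and Crabp1) and 1 rose (Rbp4), with a median log2 change of -0.13. Crabp2, which carries retinoic acid to its receptors, stood at 260, 272 and 262 FPKM on day 4 and at 20.9, 27.5 and 22.7 FPKM on day 7 (-3.44 ± 0.13 SE, limma adjusted p = 8.71e-17). Stra8, first known as a retinoic acid-induced gene and needed for entry into meiosis, stood at 88.2, 90.3 and 89.1 FPKM and then at 11.4, 8.28 and 10.4 FPKM (-3.04 ± 0.19 SE, adjusted p = 1.57e-12). Hoxb1, a hindbrain Hox gene with retinoic acid response elements, stood at 9.89, 11.8 and 9.51 FPKM and then at 0.24, 1.02 and 0.45 FPKM (-2.89 ± 0.14 SE, adjusted p = 1.41e-14). The days were well separated for all 3 genes. Crabp1, the second cellular retinoic acid binding protein, fell from 11.8 ± 2.2 to 4.76 ± 0.54 FPKM (-1.14 ± 0.16 SE).

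Cyp26a1 remained the most abundant of these genes. It stood at 620, 593 and 616 FPKM on day 4 and at 1010, 1036 and 1051 FPKM on day 7. All 3 day 7 libraries lay above day 4, and the log2 change of 0.76 ± 0.12 SE passed limma's adjusted p (1.68e-05) but not the fold rule. Cyp26b1, a second enzyme of that family, had a log2 change of 0.84, and the receptor genes Rara and Rarb had changes of -0.10 and 0.14, neither passing the adjusted p. Rarg, the third receptor, had a change of -0.81. Rbp4, the serum carrier of retinol, rose from 7.70, 7.65 and 10.1 FPKM to 43.8, 53.5 and 45.2 FPKM (2.36 ± 0.16 SE, adjusted p = 7.35e-12).

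The promoter of Cyp26a1 is shown because its level went the other way from the retinoid genes that fell. The RefSeq window on GRCm38.p6 is chr19:37697558-37697857 on the plus strand. Capitals mark a direct repeat of the letters AGNTCA with 5 bases between, a form of the receptor's motif, read here on the opposite strand.
Cyp26a1: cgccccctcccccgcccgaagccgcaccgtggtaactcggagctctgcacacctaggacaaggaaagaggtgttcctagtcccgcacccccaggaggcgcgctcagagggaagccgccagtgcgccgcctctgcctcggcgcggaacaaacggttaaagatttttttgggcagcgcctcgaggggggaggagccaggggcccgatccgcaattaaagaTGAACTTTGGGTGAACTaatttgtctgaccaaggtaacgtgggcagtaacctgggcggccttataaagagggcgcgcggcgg
The repeat lies at positions -32 to -16 relative to the annotated start. Of 32851 promoter windows of this length 67 (0.204%) held this repeat of AGNTCA on either strand. The windows of Hoxb1, Stra8, Crabp1 and Rarb did not hold these letters. Forms of the motif with other letters were not searched, and the search says nothing of sites elsewhere.

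**Figure D2:**
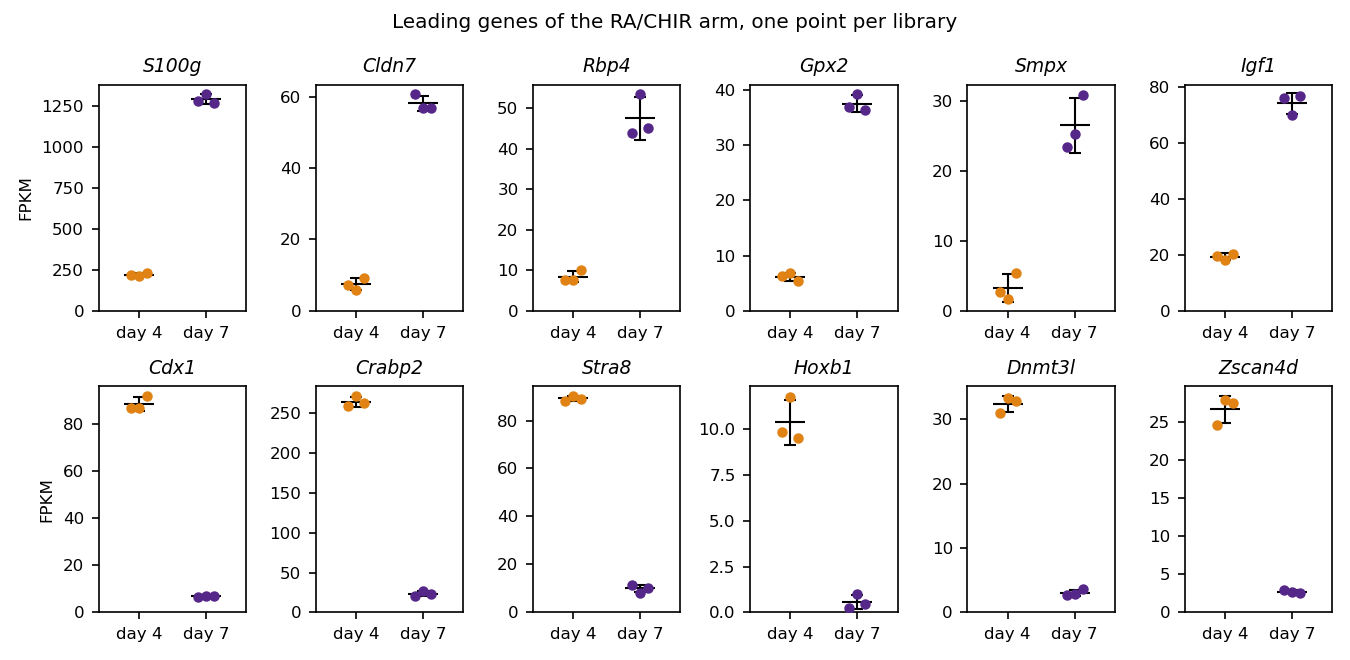
FPKM (vertical axis, linear from 0, own scale per gene) on day 4 (orange) and day 7 (purple) of RA/CHIR for 6 genes that rose and 6 that fell, with 1 point per library and the mean ± SD of 3 libraries in black. The genes were chosen among those whose days do not overlap; S100g goes from a mean of 221 to 1291 FPKM and Crabp2 from 264 to 23.7 FPKM.

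Among Wnt-related genes, Cdx1 and Fzd10 fell while most feedback genes stayed within the fold rule. Of 24 tested Wnt targets and feedback genes 2 fell and none rose, and the median log2 change was 0.13. Cdx1, a caudal homeobox gene that responds to both Wnt and retinoic acid in mouse embryos, stood at 86.8, 86.5 and 91.7 FPKM on day 4 and at 6.40, 7.12 and 7.12 FPKM on day 7 (-3.50 ± 0.13 SE, limma adjusted p = 1.05e-16). The ratio of the day 7 to the day 4 mean was 0.0779, and the days were far apart. Its relative Cdx2 was at 5.81 ± 1.04 and 7.92 ± 0.80 FPKM (log2 change 0.40), and the mesoderm gene T at 1.1 to 1.8 FPKM on day 4 and 0.34 to 0.80 FPKM on day 7. The Wnt receptor Fzd10 fell from 40.2, 40.7 and 41.7 FPKM to 12.4, 11.5 and 12 FPKM (-1.69 ± 0.12 SE, adjusted p = 1.89e-11).

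The feedback genes Axin2, Notum, Sp5 and Lef1 were above 1 FPKM in all 6 libraries, and Dkk4 and Sfrp5 were below it in all 6. Axin2, a negative regulator that Wnt signalling induces, stood at 80.2, 83.1 and 80.8 FPKM on day 4 and at 52.1, 52.6 and 49.7 FPKM on day 7. Its groups did not overlap, and the log2 change of -0.65 ± 0.14 SE passed the adjusted p (0.000568) but not the fold rule. Notum, a secreted enzyme that inactivates Wnt ligands, had 93.1 ± 7.1 and 119 ± 7 FPKM, and the target Sp5 33.5 ± 2.9 and 30.7 ± 2.8 FPKM, neither passing the adjusted p (0.0854 and 0.55). Lef1 had 8.0 ± 0.7 and 6.6 ± 1.9 FPKM (log2 change -0.27, adjusted p = 0.308). Of 29 tested Wnt ligands, receptors and secreted inhibitors, the secreted Dickkopf family genes Dkk2 and Dkk3 rose, by 1.30 and 1.44 on the log2 scale, and Fzd10 fell.

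The endoderm markers mostly had small positive changes. Of 21 tested primitive endoderm genes none rose and 1 fell, yet 14 were higher by the adjusted p alone and 1 lower, and the median log2 change was 0.61. Sox17, a transcription factor of this lineage, stood at 174, 160 and 160 FPKM on day 4 and at 297, 286 and 329 FPKM on day 7 (0.88 ± 0.14 SE, limma adjusted p = 2.72e-05). Gata4, another lineage factor, stood at 74.0, 68.5 and 72.5 FPKM and then at 123, 120 and 123 FPKM (0.76 ± 0.10 SE, adjusted p = 1.23e-06). The receptor gene Pdgfra stood at 40.7, 37.4 and 38.7 FPKM and then at 65.2, 62.0 and 61.2 FPKM (0.68 ± 0.09 SE, adjusted p = 5.61e-07). Each of these genes was higher in all 3 day 7 libraries, by less than the fold rule. Foxa2 had a change of 0.64, Col4a1, a collagen of basement membranes, of 0.68 and Lama1, a laminin chain, of 0.17. Gata6, Sox7 and Dab2 had changes of -0.18, -0.16 and -0.24, and none of these passed the adjusted p, although Gata6 and Dab2 did with the spread of the 6 libraries alone (0.0301 and 0.00479 by limma). Amn, the membrane anchor of the cubilin receptor, was the member that fell, from 7.96 ± 0.54 to 2.07 ± 0.42 FPKM (-1.55 ± 0.20 SE).

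Parietal and visceral endoderm genes rose in small numbers, where 1.35% of all tested genes rose and 1.96% fell. Of 19 tested parietal endoderm genes 12 were higher and none lower by the adjusted p alone, with a median log2 change of 0.40. By the full rule 2 of the 19 rose and none fell. They were Prss12, a serine protease (2.59 ± 0.43 to 9.27 ± 0.53 FPKM, 1.52 ± 0.13 SE), and Fst, an activin antagonist (5.81 ± 0.27 to 14.5 ± 1.3 FPKM, 1.18 ± 0.11 SE). Sparc, an abundant matrix protein of this tissue, had 1315 ± 15 and 2129 ± 43 FPKM (0.69 ± 0.07 SE). Of 15 tested visceral endoderm genes 3 rose, Rbp4, Apoa2 and Ttr, and Amn fell, with a median of 0.14. By the adjusted p alone 5 of the 15 were higher and 1 lower. The apolipoprotein gene Apoa2 rose from 1.10, 0.46 and 1.70 FPKM to 2.54, 4.80 and 7.85 FPKM (1.48 ± 0.37 SE), a call that was lost with a pseudocount of 0.1 (adjusted p = 0.0742 by limma). Ttr, a serum carrier, rose from 0.22 ± 0.02 to 1.5 ± 0.4 FPKM (1.02 ± 0.17 SE) and slipped under the fold rule without day 7 replicate 2 (0.92) and under quantile normalization (0.97). Ttr passed the filter through day 7 alone, so it had to be higher then. Afp, a defining visceral endoderm gene, was below 1 FPKM in all 6 libraries and was not tested, and 8 further genes of that list, including Apoa1 and Apob, were also below it. The labelled cell type thus held the regulators of extraembryonic endoderm at 16.9 FPKM or more on day 7 (Gata4, Gata6, Sox17, Sox7), while Pou5f1, at 0.24 FPKM in the XEN line, was still at 285 FPKM. The XEN line held Gata4 at 246 FPKM, Sox17 at 189 FPKM and Sparc at 4075 FPKM.

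A minority of the pluripotency genes fell. Of 27 tested genes 6 fell and 1 rose, with a median log2 change of -0.56, and by the adjusted p alone 19 were lower and 3 higher. Over all tested genes 1.96% fell, and 17.9% were lower by the adjusted p alone. Gdf3, which fell, and Tdgf1, which rose, passed the filter through 1 day alone, so their direction was fixed. The other 25 held 5 that fell and none that rose. Dnmt3l, a cofactor of the de novo DNA methyltransferases, stood at 30.9, 33.2 and 32.9 FPKM on day 4 and at 2.65, 2.79 and 3.63 FPKM on day 7 (-3.06 ± 0.25 SE, limma adjusted p = 4.06e-10). Sox2 stood at 17.4, 19.7 and 18.7 FPKM and then at 4.52, 4.15 and 5.37 FPKM (-1.79 ± 0.12 SE, adjusted p = 1.24e-11). Nanog stood at 4.66, 4.93 and 5.47 FPKM and then at 0.75, 1.20 and 0.65 FPKM (-1.70 ± 0.15 SE, adjusted p = 1.17e-09). Both transcription factors were already far below their level in untreated stem cells on day 4 (223 FPKM for Sox2 and 377 FPKM for Nanog). Utf1, Gdf3 and Dppa5a fell by 1.32, 1.19 and 1.18 on the log2 scale.

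Pou5f1, the gene of the factor OCT4, had a smaller difference. It stood at 352, 350 and 346 FPKM on day 4 and at 283, 290 and 280 FPKM on day 7, with a log2 change of -0.30. The days did not overlap, but limma's adjusted p was 0.469 with the spread of all 11 groups (SE 0.29) and 0.000293 with that of these 6 libraries alone (SE 0.03). Zfp42 and Esrrb had changes of -0.56 and -0.28, and Sall4 of -0.13 (adjusted p = 0.646). Tdgf1, a Nodal co-receptor, was the list member that rose, from 0.72, 0.36 and 0.25 FPKM to 4.23, 3.50 and 2.87 FPKM (1.65 ± 0.16 SE), and its reads may be shared with related pseudogenes. Of 11 tested genes of primed pluripotency and gastrulation 3 fell, Cdx1, Nodal (2.44 ± 0.15 to 0.35 ± 0.14 FPKM) and Fgf8 (2.84 ± 0.97 to 0.52 ± 0.19 FPKM). Nodal and Fgf8 were among 5 of the 11 that passed the filter through 1 day alone, so these 2 had to be lower on day 7. The other 6 held 1 that fell, Cdx1, and had a median of -0.15, where 1.96% of all tested genes fell.

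Cell cycle genes were lower by small steps. Of 28 tested genes of DNA replication none was called, yet 23 were lower and none higher by limma's adjusted p alone, and the median log2 change was -0.49. Mcm5, a subunit of the replicative helicase, had 108, 107 and 115 FPKM on day 4 and 66.0, 63.0 and 62.0 FPKM on day 7 (-0.78 ± 0.08 SE, adjusted p = 3.67e-08). Of 21 tested mitosis genes 2 fell and 18 were lower by the adjusted p alone, with a median of -0.66. The fallen members were Cdc20, an activator of the anaphase-promoting complex (97.7 ± 4.4 to 46.8 ± 1.6 FPKM, -1.04 ± 0.05 SE), and Kif23, a kinesin of cytokinesis (50.8 ± 13 to 21.7 ± 0.5 FPKM, -1.16 ± 0.16 SE). Kif23 missed the fold rule without day 4 replicate 1 (-0.97). Of 24 tested cell cycle inhibitors and p53 targets, Cdkn1c, an imprinted inhibitor of cyclin-dependent kinases, rose from 11.2 ± 1.2 to 24.7 ± 2.0 FPKM (1.08 ± 0.09 SE).

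**Figure D3:**
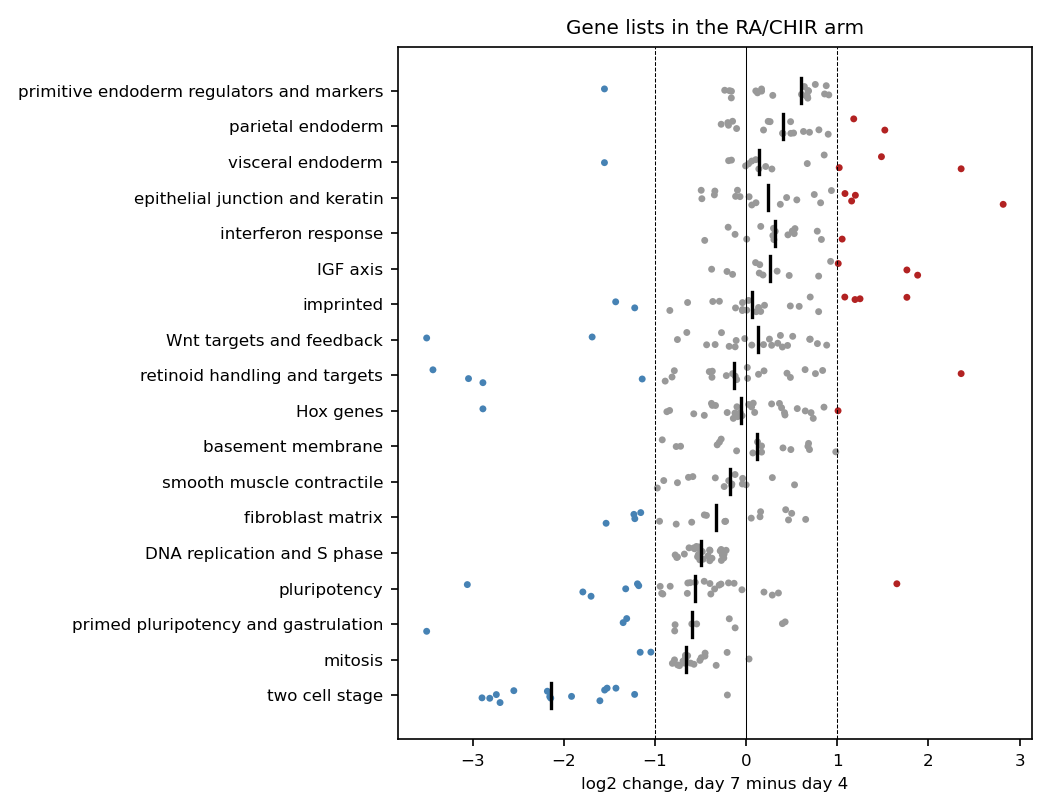
Change from day 4 to day 7 of RA/CHIR (horizontal axis, log2(FPKM + 1) difference) for the tested members of 18 gene lists, with 1 point per gene, red where it rose, blue where it fell and grey where it was not called, and a black bar at each list's median. The median is -2.14 for the 2-cell list, -0.66 for mitosis and 0.61 for primitive endoderm, and the vertical spread of points within a list carries no value.

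Several genes of epithelia and absorptive cells rose. S100g, the calcium-binding protein calbindin-D9k of intestine and yolk sac, stood at 219, 214 and 230 FPKM on day 4 and at 1279, 1326 and 1270 FPKM on day 7 (2.54 ± 0.14 SE, limma adjusted p = 2.02e-13). The ratio of means was 5.84, from the highest starting level of the 15 genes with the largest rise. Of 11 tested genes of that list (calcium binding and channel genes of absorptive epithelium) 3 rose and 1 fell, with a median of 0.28. Tspan8, a tetraspanin of epithelia, rose from 26.5 ± 1.2 to 89.1 ± 4.7 FPKM and S100a1 from 87.4 ± 4.8 to 249 ± 8 FPKM, while the water channel gene Aqp3 fell from 3.95 ± 0.22 to 0.68 ± 0.41 FPKM.

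Of 20 tested epithelial junction and keratin genes 4 rose and none fell, with a median of 0.24, where 1.35% of all tested genes rose. By the adjusted p alone 10 of the 20 were higher and 4 lower. Cldn7, a tight junction claudin, stood at 7.38, 5.89 and 9.18 FPKM on day 4 and at 60.7, 56.9 and 56.8 FPKM on day 7 (2.82 ± 0.12 SE, limma adjusted p = 4.61e-16), the largest log2 rise among the named protein-coding genes. Epcam, an epithelial adhesion molecule, rose from 22.3 ± 1.4 to 52.4 ± 2.9 FPKM and Krt19, a simple epithelial keratin, from 77.3 ± 4.1 to 173 ± 6 FPKM. Grhl2, a regulator of epithelial genes, rose from 0.34 ± 0.04 to 1.84 ± 0.21 FPKM, and had to be higher because it passed the filter through day 7 alone. In a list of 13 tested genes of mesenchymal transition Twist1 rose, by 1.13 on the log2 scale, and none fell. The XEN line held Cldn7 at 0.12 FPKM.

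The remaining genes of the 15 largest rises belonged to several roles. Gpx2, a glutathione peroxidase of gut epithelium, stood at 6.37, 6.77 and 5.36 FPKM on day 4 and at 36.8, 39.2 and 36.3 FPKM on day 7 (2.43 ± 0.16 SE, limma adjusted p = 8.25e-12). Aqp1, a water channel, rose from 1.80 ± 0.11 to 9.04 ± 0.63 FPKM and Car3, a carbonic anhydrase, from 4.64 ± 0.39 to 19.3 ± 0.6 FPKM. The muscle-associated genes Smpx (3.28 ± 1.96 to 26.5 ± 3.9 FPKM) and Mybpc1 (1.82 ± 0.50 to 11.5 ± 0.3 FPKM) rose, while the contractile list described below did not. Cyp1b1, a cytochrome P450 that metabolises steroids and retinol, rose from 1.5 ± 0.1 to 9.69 ± 0.19 FPKM. Islr, Cthrc1, Mamld1 and Vstm2b rose by 1.94, 1.92, 1.92 and 2.36 on the log2 scale. AC156560.1, an unnamed sequence on chromosome 13, was listed at 0 in all day 4 libraries and at 7.76, 7.57 and 35.7 FPKM on day 7, and its call was lost without day 7 replicate 3 (adjusted p = 0.0752).

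Growth factors of the insulin-like family rose. Of 14 tested genes of the IGF axis 3 rose and none fell, with a median of 0.26, where 1.35% of all tested genes rose. Igf1 stood at 19.7, 18.1 and 20.4 FPKM on day 4 and at 76.1, 69.9 and 76.7 FPKM on day 7 (1.88 ± 0.23 SE, limma adjusted p = 3.57e-07). Igf2 stood at 45.9, 43.0 and 44.0 FPKM and then at 159, 150 and 150 FPKM (1.76 ± 0.08 SE, adjusted p = 2.78e-15). Both growth factor genes were higher in every day 7 library. Igfbp1, a secreted binding protein, rose from 0.22 ± 0.12 to 1.45 ± 0.09 FPKM (1.01 ± 0.12 SE) and missed the fold rule without day 4 replicate 1 (0.93) or day 7 replicate 3 (0.99) and under quantile normalization (0.93). Igfbp1 passed the filter through day 7 alone and had to be higher, and 2 of the other 13 genes rose. In the RA arm 6 of the 14 rose and none fell over the same days, with a median of 0.58. The change was larger in RA/CHIR than in RA for 2 of the 14 and smaller for 4.

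Imprinted genes moved in both directions. Of 24 tested imprinted genes 4 rose, Igf2, H19, Dlk1 and Cdkn1c, and 2 fell, Phlda2 and Nnat, with a median of 0.07. H19, a non-coding RNA transcribed next to Igf2, rose from 80.3, 79.2 and 82.9 FPKM to 217, 184 and 181 FPKM (1.25 ± 0.07 SE, limma adjusted p = 8.96e-13). Dlk1, a Notch-related membrane protein, rose from 13.7 ± 3.7 to 31.8 ± 1.9 FPKM. Phlda2, a gene that limits placental growth in mice, fell from 12.8 ± 2.3 to 4.14 ± 1.03 FPKM and Nnat from 29.1 ± 2.5 to 12.1 ± 2.7 FPKM.

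Signalling ligands and patterning genes were called singly. Of 20 tested genes of the TGF-beta, BMP and Nodal pathways 3 rose and 2 fell, with a median of 0.23. The ligand genes Tgfb2 (2.06 ± 0.21 to 6.10 ± 0.06 FPKM) and Tgfb3 (1.71 ± 0.29 to 4.74 ± 0.59 FPKM) and the BMP antagonist gene Nog (2.72 ± 0.66 to 7.92 ± 0.26 FPKM) rose, and Nodal was among those that fell. Shh, the hedgehog ligand gene, rose from 2.07 ± 0.39 to 6.56 ± 1.48 FPKM. Of 17 tested FGF pathway genes Fgfbp3, a carrier of secreted FGFs, fell from 164 ± 7 to 61.0 ± 2.2 FPKM and Fgf8 fell, while the receptor gene Fgfr4 rose from 6.59 ± 1.31 to 14.2 ± 2.0 FPKM. The call of Fgfr4, with a log2 change of 1.01, was lost without day 4 replicate 3 (0.86), without day 7 replicate 1 (0.94) or 2 (0.96) and with TMM-type factors (0.99). Of 19 tested homeobox genes outside the Hox clusters, Tlx2 fell from 34.0, 35.4 and 36.1 FPKM to 3.08, 5.38 and 6.02 FPKM (-2.67 ± 0.17 SE, adjusted p = 1.99e-12 by limma). Dlx3 and Gbx2 fell by 1.18 and 1.17 on the log2 scale, and Pitx1 rose from 76.7 ± 5.7 to 185 ± 6 FPKM. Of 32 tested Hox genes, Hoxb1 fell and Hoxc5 rose, with a median of -0.05, and the change of 1.01 in Hoxc5 missed the fold rule under 4 of the 6 omissions of a library (0.80 to 0.98) and with TMM-type factors (0.995).

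In metabolism, single genes were called within lists that had medians near 0. Of 23 tested genes of hypoxia and glycolysis, Slc2a1, the glucose transporter GLUT1, fell from 197, 193 and 212 FPKM to 72.5, 73.4 and 69.9 FPKM (-1.46 ± 0.11 SE, limma adjusted p = 1.13e-10). In the same list Ndrg1, a gene induced by stress and differentiation, rose from 24.3 ± 0.7 to 79.7 ± 0.6 FPKM (1.68 ± 0.16 SE). Of 19 tested redox genes Gpx2 rose and Mt2, a metallothionein, fell from 471 ± 6 to 208 ± 9 FPKM. None of 22 cholesterol synthesis genes, 18 secretory chaperones or 26 nuclear genes of oxidative phosphorylation was called, and their medians were -0.06, 0.14 and 0.00; by the adjusted p alone 1, 6 and 1 of them were higher and 2, 1 and 4 lower. Of 16 tested interferon response genes 9 were higher and none lower by the adjusted p alone, and Ifitm3 rose from 74.7 ± 8.0 to 156 ± 14 FPKM (1.05 ± 0.11 SE, 0.97 without day 4 replicate 1).

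Markers of other cell types were described by the same rule. None of 16 tested smooth muscle contractile genes was called, their median was -0.18, and the summed level of all 22 genes of the list was 910 to 969 FPKM on day 4 and 897 to 927 FPKM on day 7. Acta2, smooth muscle actin, stood at 95.6, 89.3 and 86.0 FPKM and then at 52.5, 44.6 and 46.5 FPKM (-0.90 ± 0.16 SE), against 11435 FPKM in the SMC line, and Myh11 was below 1 FPKM in all 6 libraries. Of 18 tested fibroblast matrix genes 4 fell and none rose, with a median of -0.33 and summed levels over all 25 genes of the list of 226 to 255 FPKM on day 4 and 214 to 226 FPKM on day 7. These were Mfap5 (5.71 ± 0.91 to 1.32 ± 0.43 FPKM), Mfap2, Pdgfrb and Col1a2, and the fall of Col1a2 (-1.16) missed the fold rule without day 4 replicate 1 (-0.96). Stem cells had been kept on fibroblasts before plating, and the part of remaining fibroblasts in these falls was not tested. Of 19 neural genes 11, of 15 cardiac genes 9 and of 18 endothelial and blood genes 9 were below 1 FPKM in all 6 libraries, and the called members were Stmn2 (17.5 ± 1.5 to 3.81 ± 1.06 FPKM), Myl7 (1.75 ± 0.18 to 6.56 ± 1.38 FPKM) and Flt1 (6.33 ± 0.22 to 17.6 ± 2.5 FPKM). The summed level of the neural list was 45.2 to 49.3 FPKM on day 4 and 31.7 to 39.4 FPKM on day 7. It was 6.79 to 7.97 and then 10.8 to 12.7 FPKM for the cardiac list, and 37.8 to 43.9 and then 58.6 to 63.2 FPKM for the endothelial and blood list. Myl7 was the only cardiac gene tested. The means of the neural and cardiac sums differed between the days by no more than those of Stmn2 and Myl7 alone. Of 12 mesothelial and epicardial genes 7 were below 1 FPKM in all 6 libraries, and of 5 tested, with a median of 0.10, Krt19 rose and Lrrn4 fell. Their summed level was 79.2 to 88.1 FPKM on day 4 and 172 to 184 FPKM on day 7, and Krt19, an epithelial keratin, made up most of it (77.3 ± 4.1 and 173 ± 6 FPKM). The part of such cells in the results was not tested.

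The same 3 days in the RA arm served to test which changes differed when CHIR was absent. The RA arm shares no library with the RA/CHIR arm. Over the genes that passed the RA/CHIR filter, 343 rose (2.62%) and 292 fell (2.23%) in RA from day 4 to 7. Of the genes that rose in RA/CHIR 31 also rose in RA, which is 17.5% of the RA/CHIR list and 9.04% of the RA list. Of those that fell 97 also fell in RA, 37.7% and 33.2% of the lists. The change itself was larger (more positive) in RA/CHIR than in RA for 404 genes (3.09%) and smaller (more negative) for 508 (3.88%), by the same thresholds on limma's contrast of the changes. By the adjusted p alone these were 1954 (14.9%) and 1902 (14.5%). Genes expressed in the RA arm alone did not enter, since the filter used the RA/CHIR libraries.

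**Figure D4:**
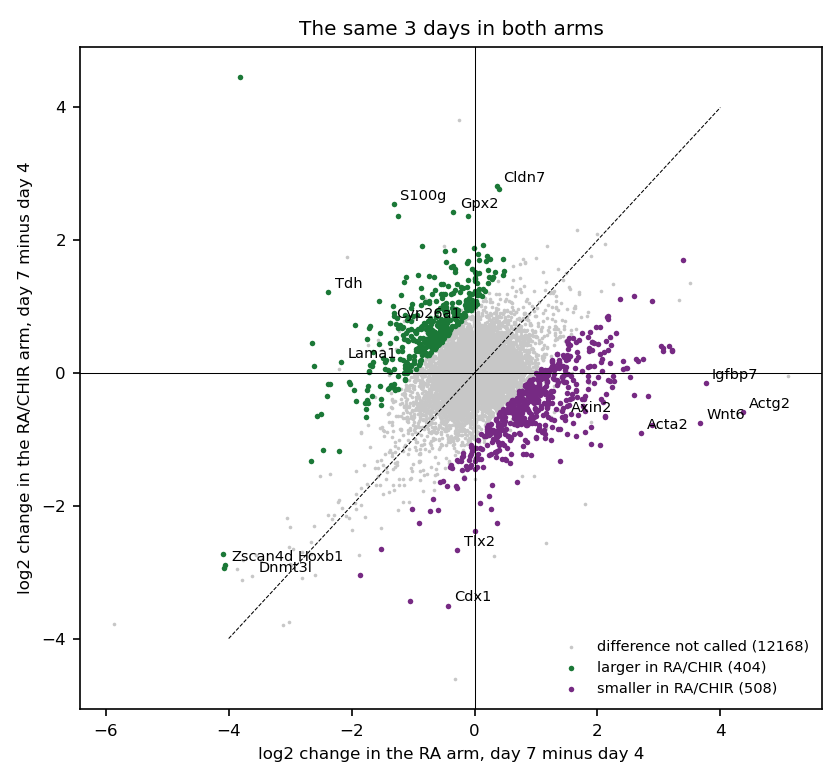
Change from day 4 to day 7 in the RA/CHIR arm (vertical axis) against that in the RA arm (horizontal axis), both as log2(FPKM + 1) differences, with 1 point per tested gene and a dashed line where they are equal. Green genes (404) had a more positive and purple genes (508) a more negative change in RA/CHIR; S100g and Tdh rose in RA/CHIR and fell in RA, while Zscan4d fell in both arms.

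The 2-cell programme fell in both arms. In RA 13 of the 15 tested genes fell, with a median of -2.21, and the contrast of the arms was called for 1 gene of the list, Zscan4d. Zscan4d went from 18.8 to 0.19 FPKM in RA, so its fall was less steep by 1.16 on the log2 scale in RA/CHIR (adjusted p = 1.03e-06 by limma). Of the 27 tested pluripotency genes 16 fell in RA and none rose, with a median of -1.16, against 6 and -0.56 in RA/CHIR. The change was larger in RA/CHIR for 6 of the 27 and smaller for 1, Nanog. Dnmt3l (-3.62 in RA) and Hoxb1 (-2.98 in RA) fell in both arms, and the contrast did not pass the adjusted p (0.263 and 0.777). The falls of Crabp2 and Stra8 were steeper in RA/CHIR, by 2.38 and 1.18 on the log2 scale. Cdx1 was at 0.40 and 0.04 FPKM and Tlx2 at 0.45 and 0.20 FPKM on days 4 and 7 of RA, so their falls in RA/CHIR (contrasts of -3.08 and -2.39) came from day 4 levels that the RA arm did not have.

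The endoderm genes separated the arms. In RA 14 of the 21 primitive endoderm genes fell and none rose, with a median of -1.24, and the change was larger in RA/CHIR for 15 of the 21 and smaller for none. Sox17 fell in RA from 72.3 ± 1.0 to 32.5 ± 3.0 FPKM, and its contrast was 2.01 ± 0.20 SE (adjusted p = 1.68e-08 by limma). Lama1 fell in RA from 384 ± 12 to 84.9 ± 1.1 FPKM, against 136 and 153 FPKM in RA/CHIR (contrast 2.33 ± 0.08 SE, adjusted p = 1.4e-17). The contrasts of Pdgfra, Col4a1 and Gata4 were 2.39, 1.93 and 1.57. For most of these genes the contrast thus rested on a fall in RA beside a small positive change in RA/CHIR.

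Cyp26a1 also went opposite ways. In RA it fell from 1031 ± 36 to 397 ± 5 FPKM (-1.37), so that the RA/CHIR arm started below and ended above the RA arm, and the contrast was 2.13 ± 0.17 SE (adjusted p = 2.13e-10 by limma). Of the called genes 9 rose in RA/CHIR and fell in RA, namely S100g, Rbp4, Tdh, Habp2, Myh7b, Robo2, Fst, Fgfr4 and Hs3st1. S100g fell in RA from 176 ± 29 to 69.8 ± 3.0 FPKM (contrast 3.85 ± 0.20 SE, adjusted p = 6.35e-14). Tdh, the threonine dehydrogenase of mouse stem cells, fell in RA from 42.9 ± 0.1 to 7.49 ± 0.87 FPKM and rose in RA/CHIR from 12.8, 12.3 and 13.7 FPKM to 31.8, 30.1 and 32.1 FPKM. The opposite pattern held for 4 genes, Hist2h2aa1, Lrrn4, Bcam and Aif1l, and the call of Lrrn4 in RA/CHIR (-1.08) was lost under quantile normalization (-0.84). Bcam, a laminin-binding adhesion molecule, fell from 169 to 66.8 FPKM in RA/CHIR and rose from 50.8 to 135 FPKM in RA.

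Contractile and matrix genes rose in RA and not in RA/CHIR. In RA 7 of 16 smooth muscle contractile genes and 8 of 18 fibroblast matrix genes rose and none fell, and the change was smaller in RA/CHIR for 6 and 13 of them. Acta2 went from 90.0 ± 1.7 to 595 ± 8 FPKM in RA, giving a contrast of -3.62 ± 0.23 SE (adjusted p = 3.23e-12 by limma). The 5 lowest contrasts were those of Actg2 (-4.95), Wnt6 (-4.42), Igfbp7 (-3.91), Acta2 and Mgst1 (-3.16). Of these Wnt6, a Wnt ligand gene, was at 77.0 ± 3.3 and 45.4 ± 3.7 FPKM in RA/CHIR and rose from 0.37 to 16.4 FPKM in RA. Axin2 rose in RA from 2.52 to 8.74 FPKM, below both RA/CHIR levels.

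The direction of the calls was set beside the XEN line, since the XEN and mES groups share no library with days 4 and 7 of RA/CHIR. Over all tested genes 16.1% were higher in XEN than in mES and 18.8% lower. Of the 177 genes that rose from day 4 to 7, 66 (37.3%) were higher and 27 (15.3%) lower in XEN than in mES, which is 3.14% and 1.10% of those XEN lists. Of the 257 that fell, 14 (5.45%) were higher and 188 (73.2%) lower in XEN, 0.667% and 7.65% of the lists. Among the leading genes, Rbp4 and Smpx were at 205 and 23.8 FPKM in XEN, and Gpx2, Vstm2b, Mybpc1 and Cthrc1 were listed at 0 there.

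The step lay between larger and smaller ones of the same arm, which share libraries with it. By the same rule and over the same genes, 1488 rose and 997 fell from mES to day 4, 72 rose and 71 fell from day 7 to 10, and 907 rose and 989 fell from day 10 to 16, after the inducers had been withdrawn. These steps differ in length, and the filter used days 4 and 7 alone. Genes expressed only at other times, such as Afp at 164 to 171 FPKM on day 16, did not enter. Zscan4d had a mean of 9.38 FPKM in mES, 26.6 on day 4, 2.70 on day 7, 0.31 on day 10 and 0.10 on day 16, and Crabp2 had 12.5, 264, 23.7, 9.35 and 4.4 FPKM. Both had their highest mean of these on day 4. S100g went on to 2553 FPKM on day 10 and was at 534 FPKM on day 16, and Cyp26a1 was at 1376 and 190 FPKM. Gpx2, Rbp4 and Igf1 had their highest means on day 16, at 228, 369 and 288 FPKM, while Vstm2b and Mybpc1 were at 0.71 and 0.06 FPKM by then.

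**Figure D5:**
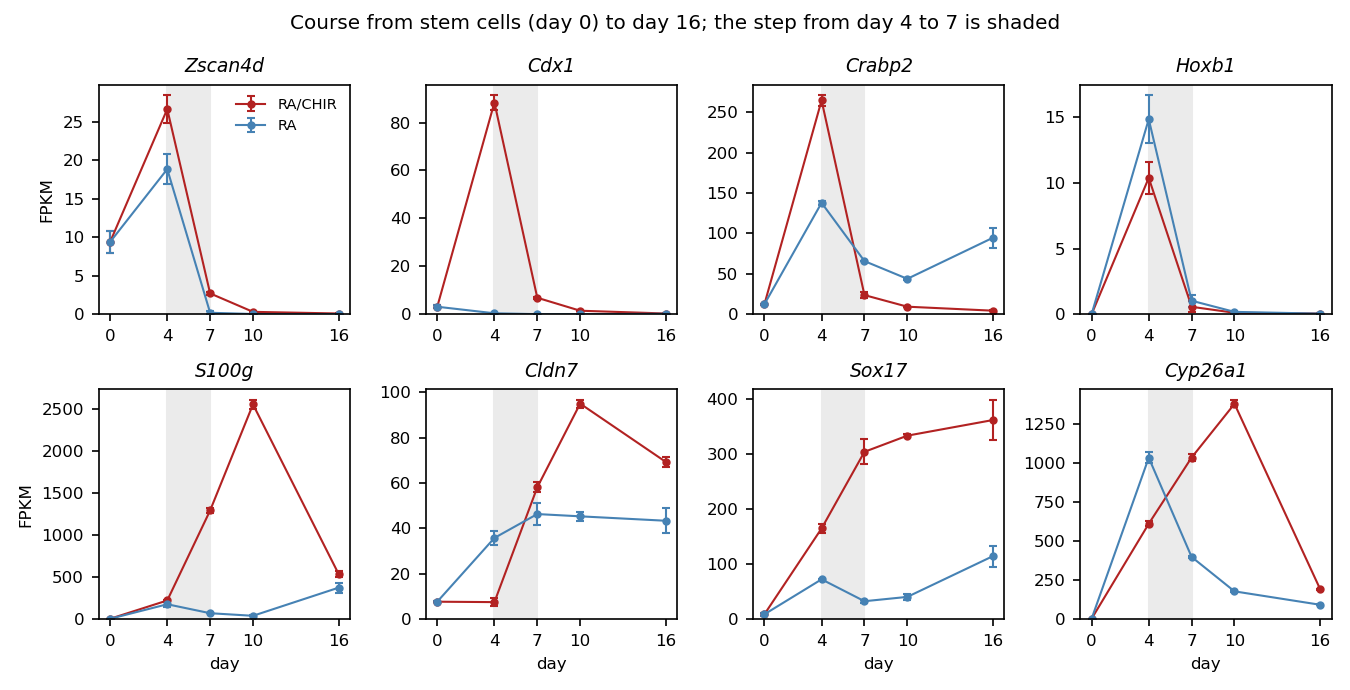
Mean FPKM ± SD of 3 libraries (vertical axis, linear from 0, own scale per gene) from stem cells (day 0) to day 16 (horizontal axis) in the RA/CHIR arm (red) and the RA arm (blue) for 8 genes, with the step from day 4 to 7 shaded. Zscan4d and Hoxb1 peak on day 4 in both arms, Cdx1 in RA/CHIR alone at 88.3 FPKM, and Cyp26a1 crosses between the arms within the shaded step.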

How the data were processed

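Poly(A) RNA was sequenced from 33 samples (11 groups of 3) as paired reads. The authors deposited FPKM values, which the submitters' processing notes link to Trimmomatic 0.33, HISAT2 2.0.4, Cufflinks, Cuffdiff and GRCm38; parameters, annotation and strand setting are not given in the sources used here. FPKM keeps no depth, and its precision cannot be computed per value. Every column was mapped by its label, and 52398 of 52631 gene identifiers were matched to names. Values were analysed as log2(FPKM + 1), which understates the change of low genes. One limma model (limma 3.58.1, R 4.3.3) with 11 group means and a trended prior (22 residual degrees of freedom) was fitted over 13080 genes and tested two-sided with Benjamini-Hochberg adjustment; ± SE are limma's. The RA contrast is the difference between the arms' changes. Scripts ran on Python 3.11.15 and were tested on simulated data. Coordinates are of GRCm38.

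The text names the 15 largest rises and 15 largest falls (at least 5 FPKM in the higher group, no overlap, no Gm or Rik names), up to 4 called members of each list described, 25 identity genes and the 5 highest and 5 lowest contrasts between the arms. Other genes with values are list members that were chosen after their values were seen. The comparison and all 45 gene lists were chosen with earlier results of these data known, so list counts and medians are descriptions. Alternatives were TMM-type factors, quantile normalization, a pseudocount of 0.1, no filter or one at 5 FPKM, the compared groups alone, no variance trend, the replicate block, the adjusted p alone and leaving out each library. No whole reads were recovered, so no count test was run. Some list members are not reported here.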

Additional observations from a re-analysis of the deposited data

Results flagged for a closer look

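For 37 of the genes named as the largest changes, as identity genes or as the highest and lowest contrasts between the arms, the change from day 4 to day 7 differed between the RA/CHIR and the RA arm by limma's contrast of the changes (adjusted p under 0.05 and a difference of 1 or more on the log2 scale). Other list members and oppositely called genes in the text above are not counted here. The values below are the log2 change in RA/CHIR minus that in RA. Among genes that rose in RA/CHIR the difference was positive for S100g (3.85), Rbp4 (3.60), Tdh (3.59), Gpx2 (2.77), Vstm2b (2.46), Cldn7 (2.46), Smpx (2.37), Aqp1 (2.33), Car3 (2.18), Igf1 (1.90), Mamld1 (1.78) and Ttr (1.18). Among genes that fell in RA/CHIR it was positive for Zscan4d (1.16), whose fall was less steep than in RA, and negative for Cdx1 (-3.08), Tlx2 (-2.39), Crabp2 (-2.38), Nanog (-1.40), Stra8 (-1.19) and AC126554.8 (-1.12). Nanog was the exception in its list, since the change of 6 of 27 tested pluripotency genes was larger in RA/CHIR and that of Nanog alone smaller. Among genes that were not called in RA/CHIR it was positive for Car4 (2.72), Pdgfra (2.39), Lama1 (2.33), Sox7 (2.19), Cyp26a1 (2.13), Sox17 (2.01), Col4a1 (1.93), Gata4 (1.57), Sparc (1.56) and Dab2 (1.01). In the same class it was negative for Actg2 (-4.95), Wnt6 (-4.42), Igfbp7 (-3.91), Acta2 (-3.62), Mgst1 (-3.16), Tagln (-2.33), Axin2 (-2.12) and Lef1 (-1.19).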

How the results depend on the processing

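The counts moved most with the threshold and the treatment of low values. With the adjusted p alone the counts were 2160 higher and 2347 lower genes, and 1954 larger and 1902 smaller changes in RA/CHIR than in RA. A pseudocount of 0.1 gave 320 higher and 392 lower genes, and quantile normalization 287 higher genes. A filter at 5 FPKM left 124 lower genes and 248 smaller changes, since fewer low genes were tested. The other alternatives kept these counts within 1.5 times of the reported ones, and no result reversed. Calls were 40.8% higher genes as reported, 39.7% with TMM-type factors and 49.1% under quantile normalization. Leaving out 1 library at a time gave 174 to 195 higher and 251 to 266 lower genes, and 393 to 412 larger and 494 to 526 smaller changes; where a day is left with 2 libraries, the spread is taken from all groups. With the replicate block the counts were 178 higher, 254 lower, 403 larger and 507 smaller. Same-numbered libraries of the days did not deviate together (correlations -0.08, 0.00 and 0.01). Deviations from means of 3 libraries cannot settle whether the numbers pair them. FPKM gives no depth, so the lowest genes, where an FPKM of 0 can be a failed estimate, carry an unknown counting error, and shared reads limit multigene families.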
